A study of Mus musculus with 18 samples.

Results

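Macrophages are the most abundant immune cells of healthy fat, and 35 genes that mark them are described here in mice whose adipose tissue overexpresses human FXR, the farnesoid X receptor, a nuclear receptor for bile acids. The 35 genes were a given list, chosen with earlier results of these data known. Each was read from 1 probe set of an Affymetrix mouse gene array that carries 1 gene symbol. They are 35 of 19937 genes measured that way. They were grouped by role into 8 resident-type genes, 4 lipid-associated genes, 8 growth factor receptor and lineage genes, 3 C1q subunits, 4 Fc receptors and adaptors, 5 complement, integrin and pattern receptors, and 3 lysosomal or membrane proteins of leukocytes.

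Total RNA from brown adipose tissue (BAT) and white adipose tissue (WAT) was hybridised, 1 sample per array, from male C57BL/6J mice aged 10 weeks on chow. The groups were BAT of 5 wild-type controls, BAT of 5 FXR mice, WAT of 4 wild-type controls and WAT of 4 FXR mice. The labels call the FXR mice adipose-specific overexpressors of human FXR. Not given in the sources used here are the promoter that drives the transgene, the depot of the white fat and whether a mouse gave both tissues. For 2 control BAT samples, numbers 2 and 4, the protocol text also mentions 6 weeks on the diet.

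Tissue macrophages depend on signalling through the receptor CSF1R. Resident-type macrophages of fat lie along vessels and carry scavenger and endocytic receptors such as CD163, CD206 (Mrc1) and LYVE1, while lipid-associated macrophages gather around dying or lipid-laden adipocytes and carry TREM2, GPNMB, galectin-3 (Lgals3) and CD11c (Itgax). Both kinds share C1q, Fc receptors and their signalling adaptors, and the transcription factor PU.1 keeps much of the macrophage programme on.

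Promoters of 6 members are shown because their genes gave contrasting results: 3 that were among the clear changes of BAT (C1qb, Stab1, Mrc1), 2 lipid-associated genes with small changes there (Trem2, Itgax) and 1 lipid-associated gene with a large one (Gpnmb). Each is the 100 bases just before a RefSeq transcript start in GRCm38.p6, read 5′ to 3′ on the gene's strand, with the matches to a PU.1 core (GAGGAA) or an AP-1 site (TGANTCA), on either strand, in capitals. C1qb lies at chr4:136886201-136886300 on the minus strand, Stab1 at chr14:31168642-31168741 on the minus strand, Mrc1 at chr2:14229314-14229413 on the plus strand, Trem2 at chr17:48346301-48346400 on the plus strand, Itgax at chr7:128129450-128129549 on the plus strand and Gpnmb at chr6:49036418-49036517 on the plus strand.
C1qb: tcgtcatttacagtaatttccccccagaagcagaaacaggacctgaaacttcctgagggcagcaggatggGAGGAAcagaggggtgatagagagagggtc
Stab1: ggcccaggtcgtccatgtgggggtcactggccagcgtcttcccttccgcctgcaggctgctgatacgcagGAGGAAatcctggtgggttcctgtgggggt
Mrc1: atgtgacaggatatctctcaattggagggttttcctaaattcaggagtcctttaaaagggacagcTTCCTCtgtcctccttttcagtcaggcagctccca
Trem2: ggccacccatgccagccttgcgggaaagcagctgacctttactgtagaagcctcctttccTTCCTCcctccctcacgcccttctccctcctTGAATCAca
Itgax: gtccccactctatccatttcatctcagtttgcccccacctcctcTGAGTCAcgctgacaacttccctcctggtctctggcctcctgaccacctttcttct
Gpnmb: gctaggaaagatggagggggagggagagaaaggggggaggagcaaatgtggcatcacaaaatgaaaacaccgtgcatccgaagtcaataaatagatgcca

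Over the 250 bases before the start, GAGGAA was found in 14 of the 26 members with a window in the RefSeq table (53.8%) and in 25.9% of all 27025 genes with one. TGANTCA was found in 6 of 26 members (23.1%) and in 7.8% of all genes, and the E-box CACGTG in 0 of 26 members and 6.9% of all genes. Both motifs occurred in the window of Trem2 and of Cd68, without overlap. A match describes letters in a window and is not a measured binding site.

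In BAT, macrophage genes rose almost throughout the list. By limma with Benjamini-Hochberg adjustment over all 19937 genes, 32 of 35 members were higher in FXR than in control mice at an adjusted p below 0.05, 0 were lower and 3 did not pass, against 7.01% of all genes called higher and 8.75% called lower. Because the list was chosen with earlier results known, these shares describe it and do not test it. The median change over the 35 genes was 0.56 on the log2 scale, a 1.47-fold difference, against 0.01 over all genes. The FXR and control arrays did not overlap, FXR above control, for 30 of 35 members and 5.89% of all genes. The values are log2(intensity + 1), which understates the change of dim genes. In bulk tissue RNA, more macrophages and more RNA of these genes per macrophage cannot be told apart.

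**Figure D1:**
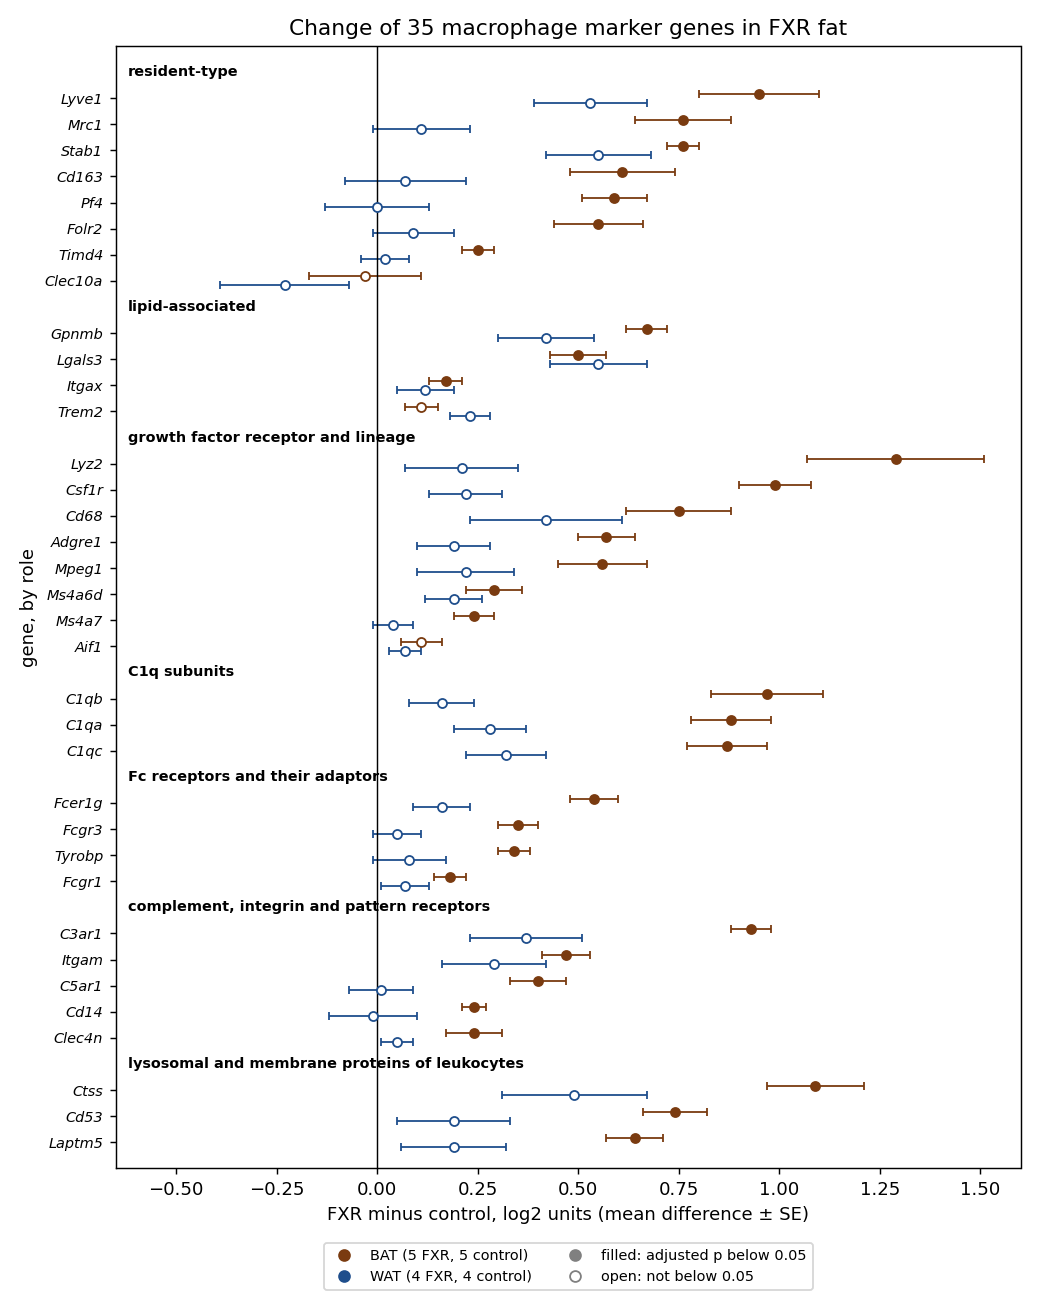
Change of each of the 35 genes, FXR minus control in log2 units, as mean difference ± SE, in BAT (brown, 5 against 5 arrays) and WAT (blue, 4 against 4 arrays), grouped by role; filled points have an adjusted p below 0.05. In BAT 32 of 35 points are filled, and in WAT 0 of 35, where 33 still lie above 0.

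Some features of the arrays touch these counts. The deposited intensities were not on 1 scale for both tissues, with a median intensity per array from 93.1 to 99.9 for brown fat and from 60.5 to 61.7 for white fat. Ucp1, the uncoupling protein of brown fat, lay at 13.09 to 13.42 in control BAT and 5.73 to 5.86 in control WAT, as the tissue labels say. The probe set of mouse Nr1h4, the gene of FXR, lay at 6.15 to 6.28 in control BAT and 6.21 to 6.31 in FXR BAT, and in WAT at 5.89 to 5.97 for controls and 5.85 to 6.05 for FXR mice. It was designed for the mouse transcript, so it does not check the human transgene. Skeletal muscle genes were high on FXR BAT 1, 2 and 4, where the summed intensity of 12 muscle markers was 20022 to 30157, against 1418 to 7959 on the 5 control BAT arrays. Without those 3 arrays 27 members were called higher, the median change was 0.52, and 920 of 19937 genes were called higher. Without control BAT 2 and 4, 27 members were also called higher, with a median of 0.52 and 704 genes called higher.

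Of the 8 resident-type genes, 7 rose in BAT and 6 of the 8 had no overlap between groups, with a median change of 0.60. Stab1, the scavenger receptor stabilin-1, stood at 7.39, 7.39, 7.52, 7.49 and 7.43 on control BAT arrays 1 to 5 and at 8.20, 8.25, 8.10, 8.24 and 8.21 on FXR BAT arrays 1 to 5. Its change of 0.76 ± 0.04 (SE; limma adjusted p = 1.42e-06) left a clear gap between the groups. Mrc1, the mannose receptor CD206, stood at 7.35, 7.27, 7.76, 7.77 and 7.57 in control BAT and 8.58, 8.13, 8.33, 8.40 and 8.10 in FXR BAT. All 5 FXR arrays lay above all 5 controls, with control BAT 1 and 2 lowest, and the change was 0.76 ± 0.12 (limma adjusted p = 0.00161).

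Lyve1, the hyaluronan receptor of vessel-associated macrophages, stood at 7.04, 7.07, 7.87, 7.62 and 7.33 in control BAT and at 8.26, 8.60, 8.26, 8.32 and 8.23 in FXR BAT. The groups did not overlap and the change was 0.95 ± 0.15 (limma adjusted p = 0.00172). LYVE1 also marks lymphatic endothelium. Of 5 measured lymphatic markers other than Lyve1, 2 rose (Pdpn by 0.40 and Reln by 0.20), while Prox1, the defining transcription factor, changed by 0.12 ± 0.04 (adjusted p = 0.0899) and Flt4 by 0.02 ± 0.05 (adjusted p = 0.822). The summed intensity of these 5 markers was 430.8 to 479.6 in control and 496.8 to 549.6 in FXR BAT, and their part in the change of Lyve1 was not tested.

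The remaining resident-type genes moved less. Cd163, the haemoglobin scavenger receptor, rose by 0.61 ± 0.13 (adjusted p = 0.0106), but control BAT 3, at 7.68, lay above 3 of the 5 FXR arrays. Pf4, a chemokine also stored in platelets, rose by 0.59 ± 0.08 (adjusted p = 7.62e-04), and Folr2, a folate receptor, by 0.55 ± 0.11 (adjusted p = 0.00653). Timd4, the phosphatidylserine receptor TIM-4, rose by 0.25 ± 0.04 (adjusted p = 0.00135), from 6.38 to 6.57 in control BAT to 6.67 to 6.75 in FXR BAT. Clec10a, a galactose-type lectin, was the exception. It stood at 6.63, 6.50, 7.07, 6.82 and 6.82 in control BAT and 7.20, 6.75, 6.56, 6.77 and 6.45 in FXR BAT. The groups overlapped fully and the change was -0.03 ± 0.14 (adjusted p = 0.940).

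Of the 4 lipid-associated genes, 3 rose in BAT, with a median change of 0.33. With each array's 1% quantile, its floor, subtracted before the log, the median was 0.59, against 0.90 for the resident-type genes. Gpnmb, a lysosomal glycoprotein, stood at 6.54, 6.55, 6.68, 6.71 and 6.58 in control BAT and 7.40, 7.39, 7.24, 7.21 and 7.18 in FXR BAT, a change of 0.67 ± 0.05 (limma adjusted p = 4.09e-05) without overlap. Lgals3, a galactoside-binding lectin, stood at 7.00, 7.12, 7.18, 7.24 and 7.17 in control and 7.78, 7.57, 7.53, 7.80 and 7.52 in FXR BAT, a change of 0.50 ± 0.07 (limma adjusted p = 6.62e-04) without overlap. Itgax, the integrin CD11c shared with dendritic cells, changed by 0.17 ± 0.04 (adjusted p = 0.0101) from 6.16 to 6.34 in control to 6.38 to 6.45 in FXR BAT. Its control mean was 1.47 times the array floor, so it was measured near the lower limit.

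Trem2, the lipid receptor that gives this macrophage state its defining signal, did not pass in BAT. It stood at 6.71, 6.78, 6.85, 6.83 and 6.88 in control BAT and 6.97, 6.92, 6.87, 6.93 and 6.92 in FXR BAT. Only control BAT 5 reached into the range of the FXR arrays, and the change was 0.11 ± 0.04 (limma adjusted p = 0.0593). Its adaptor Tyrobp, also called DAP12, rose by 0.34 ± 0.04 (adjusted p = 5.06e-04), from 6.53 to 6.73 in control BAT to 6.97 to 7.10 in FXR BAT.

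**Figure D2:**
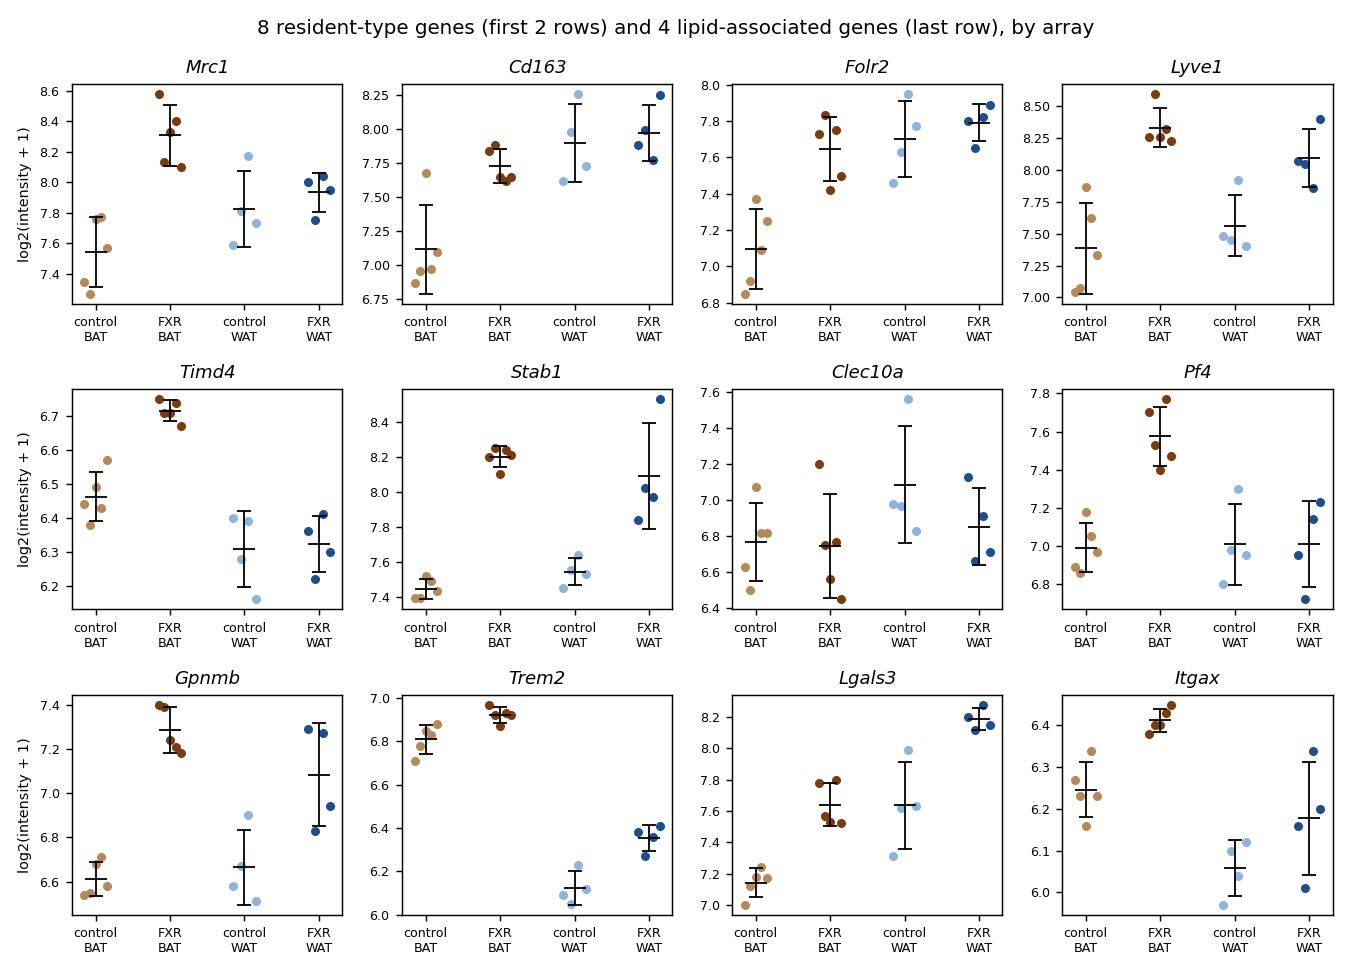
log2(intensity + 1) of the 8 resident-type genes and the 4 lipid-associated genes on each of the 18 arrays; points are arrays, and the black marks give the group mean ± SD. Stab1, Timd4 and Gpnmb separate fully in BAT, Clec10a overlaps in both tissues, and the WAT points of Lgals3 and Trem2 lie higher in FXR mice without overlap.

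The growth factor receptor and lineage genes followed the same direction in BAT, with 7 of 8 higher and a median change of 0.56. Csf1r, the receptor for CSF1 and IL-34, stood at 7.33, 7.29, 7.77, 7.62 and 7.54 in control BAT and at 8.55, 8.61, 8.47, 8.48 and 8.37 in FXR BAT. That is a 1.98-fold difference without overlap (log2 change 0.99 ± 0.09, limma adjusted p = 6.12e-05). Adgre1, the surface antigen F4/80, rose by 0.57 ± 0.07 (adjusted p = 2.88e-04) and Cd68, a lysosomal glycoprotein, by 0.75 ± 0.13 (adjusted p = 0.00246).

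Lyz2, lysozyme M, changed most of the 35 genes and ranked 77 of 19937 by the size of its rise. It stood at 8.06, 7.93, 8.88, 8.96 and 8.54 in control BAT and 10.16, 9.44, 9.69, 10.05 and 9.49 in FXR BAT, a 2.44-fold difference (log2 change 1.29 ± 0.22, limma adjusted p = 0.00256). Lyz1, its neighbour and near-identical copy, could share its probes, so the gene of origin is uncertain. Mpeg1, the pore-forming protein perforin-2, rose by 0.56. The membrane proteins Ms4a6d and Ms4a7 rose by 0.29 and 0.24, Ms4a7 from within 1.5 times the floor on every control BAT array. Aif1, the actin-binding protein IBA1, changed by 0.11 ± 0.05 (adjusted p = 0.142), and its mean was 1.44 times the floor in control BAT.

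**Figure D3:**
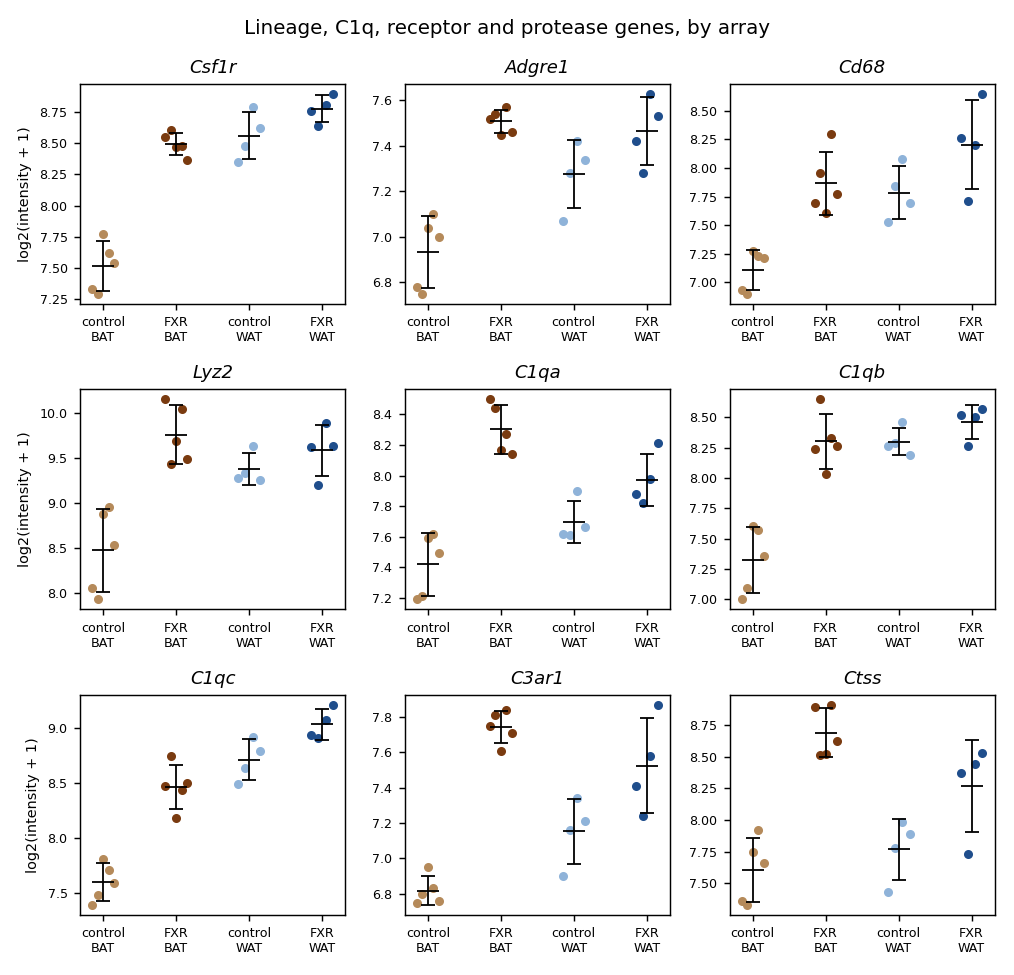
log2(intensity + 1) of 9 genes of lineage, C1q, complement receptor and protease roles on each array, with group mean ± SD in black. In BAT the FXR arrays lie above all control arrays for each of the 9 genes, and in WAT the groups overlap for each.

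All 3 C1q subunits, the recognition protein that opens the classical complement pathway, rose together in BAT. Their genes are neighbours on chromosome 4, C1qb at chr4:136880126-136886200, C1qc at chr4:136889801-136892936 and C1qa at chr4:136895916-136898844. C1qb stood at 7.00, 7.09, 7.60, 7.57 and 7.36 in control BAT and 8.24, 8.65, 8.03, 8.33 and 8.26 in FXR BAT, a 1.96-fold difference (log2 change 0.97 ± 0.14, limma adjusted p = 9.01e-04). C1qa rose by 0.88 ± 0.10 and C1qc by 0.87 ± 0.10, with adjusted p of 2.51e-04 and 2.84e-04. The lowest FXR array lay above the highest control array for all 3 genes.

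All 4 Fc receptor genes rose in BAT, with a median change of 0.35. The shared signalling chain Fcer1g rose most, by 0.54 ± 0.06 (adjusted p = 1.97e-04), followed by the low-affinity receptor Fcgr3, by 0.35 ± 0.05 (adjusted p = 0.00148). The high-affinity receptor Fcgr1 changed by 0.18 ± 0.04 (adjusted p = 0.0101). None of the 4 overlapped between groups.

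Receptors for complement fragments, integrins and microbial patterns rose in 5 of 5 cases. C3ar1, the receptor for C3a, stood at 6.75, 6.80, 6.95, 6.83 and 6.76 in control BAT and 7.75, 7.81, 7.61, 7.84 and 7.71 in FXR BAT, a 1.90-fold difference (log2 change 0.93 ± 0.05, limma adjusted p = 3.03e-06). Itgam, the integrin CD11b, rose by 0.47 ± 0.06 (adjusted p = 5.65e-04), C5ar1 by 0.40 and the lipopolysaccharide co-receptor Cd14 by 0.24 ± 0.03 (adjusted p = 7.29e-04). Clec4n, the lectin dectin-2, changed by 0.24 ± 0.07 (adjusted p = 0.0424) from within 1.5 times the floor on all control BAT arrays. Its call was the single one of the 32 that leaving out 1 array could remove.

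The 3 leukocyte proteins of lysosome and membrane had a median change of 0.74. Ctss, the protease cathepsin S, stood at 7.36, 7.33, 7.75, 7.92 and 7.66 in control and 8.89, 8.51, 8.52, 8.91 and 8.62 in FXR BAT, a 2.12-fold difference (log2 change 1.09 ± 0.12, limma adjusted p = 2.41e-04). Cd53, a tetraspanin, rose by 0.74 ± 0.08 (adjusted p = 2.16e-04) and Laptm5, a lysosomal membrane protein, by 0.64 ± 0.07 (adjusted p = 2.41e-04).

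The arrays of a group did not vary gene by gene alone. Among controls in BAT, array 1 or 2 was the lowest for 16 and 15 of the 35 genes, and array 3 or 4 the highest for 14 and 11. Among FXR BAT arrays, array 3 was lowest for 14 genes and array 4 highest for 13. The summed intensity of the 35 genes was 4192 to 5274 in control BAT and 7126 to 8157 in FXR BAT.

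Markers of other immune cells moved little in BAT. Of the T cell list 1 of 8 rose (Thy1, by 0.46, which fibroblasts also express), of the B cell list 0 of 6, of neutrophils 1 of 8 (S100a8, by 0.13), of mast cells 0 of 6 and of dendritic cells 0 of 7. The T cell genes Cd3g and Cd3d and the B cell genes Cd79a and Ms4a1 were within 1.5 times the floor on all 18 arrays. So were the neutrophil genes Retnlg and Cxcr2, the mast cell gene Ms4a2 and the dendritic cell gene Clec9a. The summed intensity of the 8 T cell genes, Thy1 included, was 710.2 to 754.5 in control and 767.4 to 814.5 in FXR BAT. The sums of the B cell, neutrophil, mast cell and dendritic cell lists overlapped between these groups. Fibroblast markers rose in 9 of 9 cases with a median of 1.51, and their summed intensity went from 4927 to 7886 in control BAT to 13159 to 16175 in FXR BAT. Adipocyte markers fell in 6 of 9 cases with a median of -0.29, from sums of 32940 to 40431 to sums of 28785 to 32643. Vascular endothelial markers fell in 3 of 8 cases with a median of -0.19, and their sums of 2817 to 3521 in FXR BAT lay below the 3652 to 4303 of control BAT. The part of these cell types in the macrophage result was not tested.

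**Figure D4:**
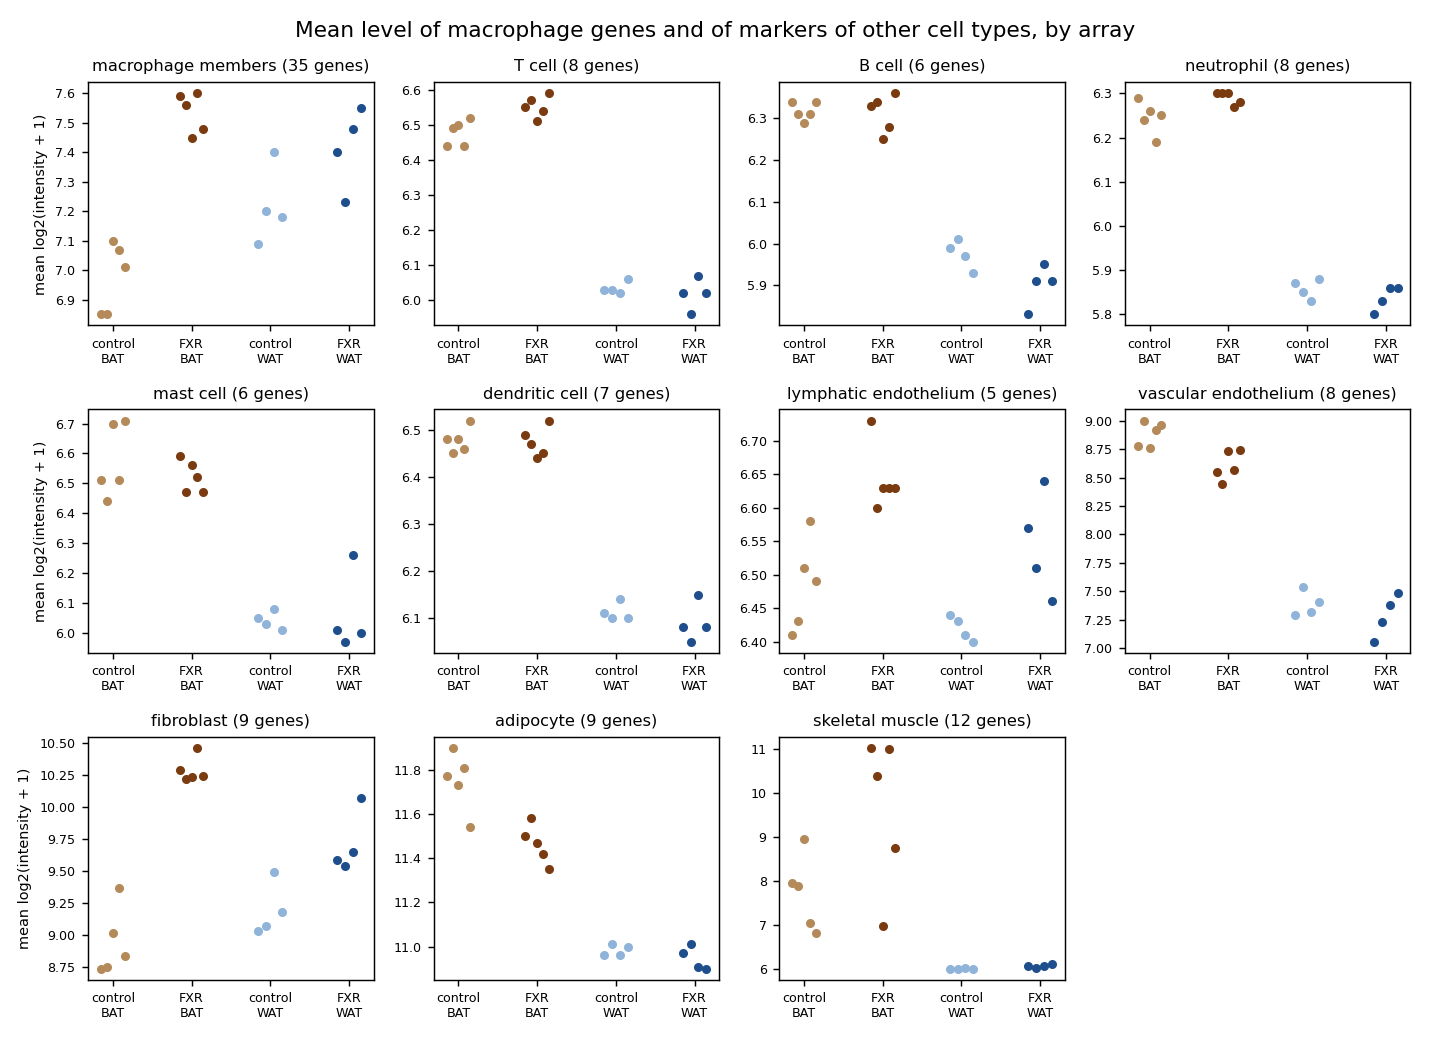
Mean log2(intensity + 1) over the macrophage list and over marker lists of other cell types, 1 point per array; the vertical scale differs between panels. In BAT the macrophage, fibroblast and lymphatic endothelium lists are higher on all FXR arrays, and the vascular endothelium list is lower on all of them. The B cell and dendritic cell lists overlap, and the muscle list is high on FXR BAT 1, 2 and 4.

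In WAT the macrophage genes leaned the same way but none passed the test. By limma, 0 of 35 were called in either direction, against 0.873% of all genes called higher and 0.456% called lower. Of the 35, 11 had an unadjusted p below 0.05, and 33 of 35 changes were above 0. Over all 19937 genes these counts were 2491 and 10124. The median change was 0.19, against 0.00 over all genes, and 3 genes had FXR arrays wholly above the controls, against 4.31% of all genes. Other settings of the same test called up to 4 members higher. In the setting with 4, 1 fit of all 18 arrays, 294 of all genes were called higher, against 174 in the main fit. The summed intensity of the 35 genes was 5797 to 7427 in control and 6506 to 8465 in FXR WAT. Fibroblast markers were above control in 9 of 9 cases in WAT, with a median change of 0.54. None of them passed the test, 7 had an unadjusted p below 0.05 and 5 did not overlap. Their summed intensity was 6584 to 9130 in control and 9016 to 13089 in FXR WAT, and their part in the macrophage values was not tested.

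The lipid-associated genes held 2 of the 3 genes without overlap in WAT. Lgals3 stood at 7.31, 7.62, 7.99 and 7.63 on control WAT arrays 1 to 4 and at 8.20, 8.12, 8.28 and 8.15 on FXR WAT arrays 1 to 4, a change of 0.55 ± 0.12 (limma adjusted p = 0.0697). Trem2 stood at 6.09, 6.05, 6.23 and 6.12 in control and 6.38, 6.27, 6.36 and 6.41 in FXR WAT, a change of 0.23 ± 0.05 (limma adjusted p = 0.0503). Its control mean was 1.49 times the floor, and with the floor subtracted its change was 0.65. The median of the 4 lipid-associated genes was 0.33 as deposited and 0.67 with the floor subtracted, against 0.08 and 0.11 for the resident-type genes. Without control WAT 3, the control array with the most macrophage signal, both were called, Lgals3 at 0.66 (adjusted p = 0.0153) and Trem2 at 0.27 (adjusted p = 0.0246), as was Lyve1 at 0.65 (adjusted p = 0.0337). That array was the highest control for these genes, so leaving it out necessarily raises their changes. Leaving out FXR WAT 4 called 1 member, Stab1, and leaving out any other WAT array called 0. Of all genes, 243 were called higher without control WAT 3 and 81 without FXR WAT 4, against 174 with all arrays.

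Gpnmb stood at 6.58, 6.67, 6.90 and 6.51 in control and 7.29, 6.83, 7.27 and 6.94 in FXR WAT. Control WAT 3 lay above FXR WAT 2, and the change was 0.42 ± 0.12 (limma adjusted p = 0.164). Itgax changed by 0.12 ± 0.07 (adjusted p = 0.514), and its control arrays were all within 1.5 times the floor.

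Most resident-type genes were near their control level in WAT, with a median change of 0.08. Stab1 was the gene without overlap, at 7.45, 7.55, 7.64 and 7.53 in control and 7.84, 8.02, 7.97 and 8.53 in FXR WAT, a change of 0.55 ± 0.13 (limma adjusted p = 0.0955). Without FXR WAT 4 its change was 0.40 with an adjusted p of 0.0349. Lyve1 stood at 7.48, 7.45, 7.92 and 7.40 in control and 8.07, 8.05, 7.86 and 8.40 in FXR WAT, where control WAT 3 exceeded FXR WAT 3 (change 0.53 ± 0.14, limma adjusted p = 0.120).

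Mrc1 changed by 0.11 ± 0.12 in WAT, Cd163 by 0.07 ± 0.15, Folr2 by 0.09 ± 0.10, Timd4 by 0.02 ± 0.06 and Pf4 by 0.00 ± 0.13, with adjusted p of 0.789, 0.904, 0.790, 0.954 and 0.997. Clec10a stood at 6.98, 6.97, 7.56 and 6.83 in control and 7.13, 6.66, 6.91 and 6.71 in FXR WAT (change -0.23 ± 0.16, limma adjusted p = 0.643). None of these 6 genes separated the groups.

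The other macrophage genes varied in WAT, and none passed. The medians were 0.20 for lineage genes, 0.28 for C1q, 0.08 for Fc receptors and adaptors, 0.05 for complement, integrin and pattern receptors, and 0.19 for lysosomal and membrane proteins. Csf1r stood at 8.35, 8.48, 8.79 and 8.62 in control and 8.76, 8.64, 8.81 and 8.90 in FXR WAT (change 0.22 ± 0.09, limma adjusted p = 0.371). Cd68 changed by 0.42 ± 0.19, Adgre1 by 0.19 ± 0.09, Lyz2 by 0.21 ± 0.14 and Ctss by 0.49 ± 0.18, with adjusted p of 0.412, 0.455, 0.622 and 0.287. The C1q subunits changed by 0.28 (C1qa), 0.16 (C1qb) and 0.32 (C1qc), and C3ar1 by 0.37 ± 0.14 (adjusted p = 0.288). At the low end Fcgr3 changed by 0.05, C5ar1 by 0.01 and Cd14 by -0.01. For all of them at least 1 control array reached into the FXR range.

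Control WAT 3 was the highest control for 26 of 35 genes and control WAT 1 the lowest for 20. FXR WAT 2 was the lowest FXR array for 30 of 35 genes and FXR WAT 4 the highest for 23. The level of the list thus varied from array to array in WAT: its mean ran from 7.09 to 7.40 in controls and from 7.23 to 7.55 in FXR mice.

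Resident-type and lipid-associated genes were then set against each other on each array, as the mean log2 level of each set relative to its mean in the controls of that tissue. In BAT the resident-type mean of the FXR arrays was 0.55 ± 0.11 (SD, n = 5; range 0.43 to 0.68) above control and the lipid-associated mean 0.36 ± 0.05 (range 0.31 to 0.43). The lipid-associated mean lagged on each of the 5 FXR arrays, by -0.25 to -0.12, while the control arrays ran from -0.25 to 0.15, so the ranges of this gap overlapped.

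In WAT the order was the other way round. The resident-type mean of the FXR arrays was 0.14 ± 0.11 (SD, n = 4; range 0.02 to 0.29) above control and the lipid-associated mean 0.33 ± 0.11 (range 0.19 to 0.44). The gap was 0.25, 0.17, 0.32 and 0.01 on FXR WAT 1 to 4 and -0.11 to 0.08 on controls, so FXR WAT 4 lay within the control range and the other 3 above it. The 4 genes of the lipid-associated set decide its mean, and Trem2 and Itgax lay close to the floor.

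**Figure D5:**
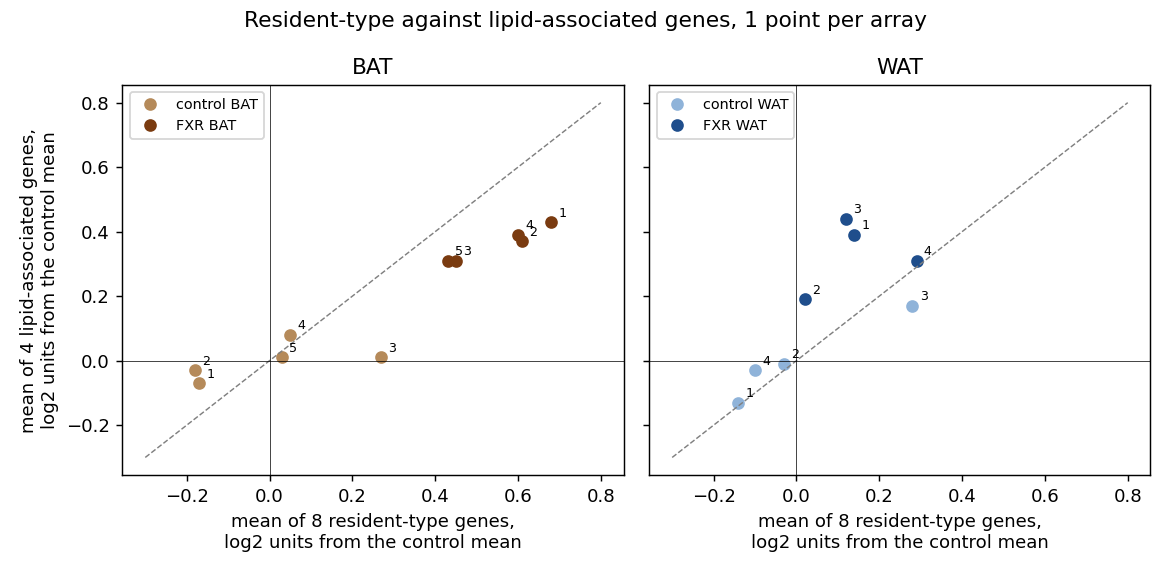
Mean of the 4 lipid-associated genes against the mean of the 8 resident-type genes, each in log2 units from the control mean of the tissue, 1 numbered point per array; the dashed line marks equal change. The 5 FXR BAT arrays lie below the line, by 0.12 to 0.25, and 3 of the 4 FXR WAT arrays lie above it, with array 4 on it.

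Whether the response differed between tissues was tested gene by gene as the WAT change minus the BAT change over all 18 arrays. The arrays were taken as independent. By limma, 11 of 35 members had a smaller change in WAT and 0 a larger one, against 2.02% of all genes with a smaller and 4.44% with a larger one. Csf1r differed by -0.77 ± 0.14 (adjusted p = 0.00273), the C1q subunits by -0.55 to -0.81, Lyz2 by -1.08 ± 0.29 (adjusted p = 0.0370) and C3ar1 by -0.56 ± 0.14 (adjusted p = 0.0270). C5ar1, Fcer1g and Fcgr3 made up the rest of the shared genes, with -0.39, -0.38 and -0.30.

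Of the resident-type genes, 2 of 8 were among the 11, Mrc1 (-0.65 ± 0.18, adjusted p = 0.0391) and Pf4 (-0.58 ± 0.16, adjusted p = 0.0327), and the median difference of the 8 was -0.44. Of the lipid-associated genes, 0 of 4 were, with a median difference of 0.00: Gpnmb -0.26 ± 0.13, Itgax -0.04 ± 0.07, Lgals3 0.05 ± 0.14 and Trem2 0.12 ± 0.06, with adjusted p of 0.297, 0.829, 0.902 and 0.261. The difference between the resident-type and lipid-associated sets was not itself tested. Csf1r kept its call in all 27 alternatives run, and the count of 11 fell to 2 when FXR BAT 1, 2 and 4, FXR WAT 1 or FXR WAT 2 was left out, to 3 without control WAT 2, to 4 without control WAT 3 or without control BAT 2 and 4, to 5 without control BAT 1 or control BAT 2, to 6 without FXR BAT 1 or FXR BAT 4 and to 7 without control WAT 4. Of all 19937 genes, 403 had a smaller change in WAT in the main fit. That number was 498 without FXR BAT 1, 2 and 4, so there the members fell while the genes called rose. It was 281 without FXR WAT 1, 279 without FXR WAT 2 and 240 without control BAT 2 and 4.

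Between control tissues the level of the list depended on the scale. With the values as deposited, 10 members were higher and 17 lower in control BAT than in control WAT, but of all genes 94.8% were called higher and 1.98% lower in BAT, and the median of all genes lay 0.59 higher. With quantile normalization 0 members were higher and 33 lower in BAT, and with each array centred on its median 0 and 34. Of all 19937 genes, 4714 were called higher and 6863 lower with quantile normalization, and 7665 and 8772 with centring. Laptm5 (-1.28 ± 0.06), C1qc (-1.11 ± 0.10) and Csf1r (-1.05 ± 0.11) were lower in BAT on the deposited scale already (limma adjusted p = 1.67e-09, 5.10e-07 and 1.82e-06).

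Other genes of macrophage biology were read from lists that hold none of the 35 members. Of 13 measured genes of macrophage growth and lineage control, 4 rose and 3 fell in BAT. Csf1, the growth factor itself, rose by 0.47 ± 0.05 (limma adjusted p = 2.53e-04), while Nr1h3, the oxysterol receptor LXR alpha, and Cebpb fell by 0.59 and 0.65. Nr1h3 and Cebpb are also adipocyte genes. In WAT 0 of 13 were called.

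Of 15 leukocyte surface and NADPH oxidase genes 12 rose in BAT and 0 fell, led by Cybb, the oxidase's catalytic subunit (0.78 ± 0.08, adjusted p = 1.42e-04), the integrin chain Itgb2 (0.45 ± 0.05, adjusted p = 2.16e-04) and the actin-bundling protein Lcp1 (0.63 ± 0.09, adjusted p = 7.29e-04). The count was 6 without control BAT 2 and 4 and 9 without FXR BAT 1, 2 and 4. In WAT 0 of 15 were called. The 3 genes not called in BAT were those of antigen presentation, Cd74, H2-Aa and H2-Ab1, whose changes were negative.

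Further resident-type genes rose in 7 of 16 cases in BAT, with a median of 0.06. The smallest adjusted p were those of Gas6, a bridging ligand for dead cells (0.93 ± 0.08, adjusted p = 7.62e-05), Igf1 (1.04 ± 0.11, adjusted p = 2.01e-04) and Cbr2 (0.83 ± 0.12, adjusted p = 9.40e-04). The largest rise was that of F13a1, a coagulation factor subunit (1.14 ± 0.19, adjusted p = 0.00274), named after its value was seen. Fibroblasts also express Gas6 and Igf1, and the part of the fibroblast markers' rise in these values was not tested. By contrast, the Cd209 genes measured (Cd209b, Cd209d, Cd209f and Cd209g) changed by -0.18 to -0.04 and none was called. The count was 4 without control BAT 2 and 4 and 3 without FXR BAT 1, 2 and 4. In WAT 0 of 16 were called.

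Further lipid-associated genes moved in both directions. In BAT 7 of 16 rose and 4 fell, with Cd63 (0.60 ± 0.06, adjusted p = 1.12e-04), Mmp12 (0.67 ± 0.07, adjusted p = 1.85e-04) and Cd9 (1.14 ± 0.13, adjusted p = 2.24e-04) giving the smallest adjusted p, while Lipa, Acp5, Lpl and Cd36 fell by 0.22 to 0.58. Lpl and Cd36 are also abundant in adipocytes. Without control BAT 2 and 4 the counts were 5 and 1. In WAT 3 of 16 rose: the lysosomal proteases Ctsd (0.66 ± 0.07, adjusted p = 0.00734) and Ctsl (0.66 ± 0.08, adjusted p = 0.0130) and the lipase Lpl (0.28 ± 0.05, adjusted p = 0.0290). Their changes exceeded those in BAT by 0.81, 0.43 and 0.70 (adjusted p = 6.25e-04, 0.0257 and 0.00352). Over the whole list the change was larger or less negative in WAT for 6 of 16 genes and smaller for 2, Cd9 (-0.75, adjusted p = 0.0284) and Apoe (-0.75, adjusted p = 0.0165), the latter named after its value was seen. These genes are expressed by other cells of fat too, and their source was not tested.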

How the data were processed

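The deposited table holds 1 linear intensity per probe set and array for 18 arrays (36 to 15980). How the authors summarised and normalized these values: not given in the sources used here. Of 34760 probe sets, 21640 had 1 gene symbol in the platform annotation, 1321 several and 11799 none listed. Those with 1 symbol gave 19937 genes, with the brightest probe set kept for the 954 genes that had more. The intensities were used as deposited, without a filter, as log2(intensity + 1). Two-sided tests were run in R 4.3.3 with limma 3.58.1 (lmFit, eBayes), and a call needs a Benjamini-Hochberg adjusted p, taken over all 19937 genes, below 0.05. The comparisons were FXR against control in each tissue, the difference of those changes in a fit of 18 arrays, and control BAT against control WAT. The fits were tested on simulated data. The floor of an array is its 1% quantile; near the floor means within 1.5 times it. The number of arrays limits the precision.

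Samples of a group are biological replicates per the series' design text. No label says that a number marks a shared mouse, litter or day. Deviations of same-numbered arrays from their group means correlated by -0.493 to 0.276 between control and FXR in BAT, 0.009 to 0.157 between control and FXR in WAT, -0.083 to 0.256 between control BAT and control WAT and 0.059 to 0.134 between FXR BAT and FXR WAT. In none of these 4 sets was every correlation above 0.1, so numbers were not taken as pairs. Between tissues, control BAT 1, 2 and 3 correlated most with the same-numbered control WAT array (0.256, 0.163 and 0.092). FXR BAT 1, 3 and 4 did so with FXR WAT (0.126, 0.134 and 0.059). For control BAT 4 and FXR BAT 2 a different-numbered array correlated more (0.316 against -0.083, and 0.12 against 0.101). Whether a mouse gave both tissues was not tested, and the main fit of the difference between tissues took all arrays as independent. The 35 members and the other lists were chosen with earlier results of these data known. Resident-type and lipid-associated genes were all named; of other roles and lists, up to 3 genes with the smallest adjusted p were given in full, and further members by value only. Promoters and gene positions are from RefSeq, GRCm38.p6. Alternatives changed the normalization, the pseudocount, the filter, the probe-set rule, the fit, the replicate block and the arrays used. Some genes of the other lists are not reported here.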

Additional observations from a re-analysis of the deposited data

Results flagged for a closer look

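A single array lay far from the others of its group, by a gap large against the group's range, in 12 of 220 gene and group combinations checked (5.45%, where chance gives about 1 in 20). Among the 35 genes these were Lyve1 on FXR BAT 2 (8.60, others 8.23 to 8.32) and on control WAT 3 (7.92, others 7.40 to 7.48), C1qa on control WAT 3 (7.90, others 7.61 to 7.66), Itgam on FXR BAT 1 (7.33, others 7.09 to 7.13) and Ms4a6d on FXR WAT 2 (6.20, others 6.34 to 6.35). Among other genes named they were Cebpb on control BAT 2 (9.82), Ctsd on control BAT 5 (12.30), Lcp1 on FXR WAT 2 (7.51), Mmp12 on FXR BAT 2 (6.77), Cd9 on control WAT 3 (7.97), Lpl on FXR BAT 3 (12.30) and Abcg1 on FXR BAT 5 (8.30). Genes read on the same array are not independent, so setting 5.45% beside 1 in 20 is not a test of chance.

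The FXR change differed between tissues, by the interaction test of limma, for 11 of the 35 genes, given as WAT change minus BAT change in log2 units. The differences were -1.08 for Lyz2, -0.81 for C1qb, -0.77 for Csf1r, -0.65 for Mrc1, -0.61 for C1qa, -0.58 for Pf4, -0.56 for C3ar1, -0.55 for C1qc, -0.39 for C5ar1, -0.38 for Fcer1g and -0.30 for Fcgr3. Other named genes with a smaller or more negative change in WAT were Gas6 (-0.81), Igf1 (-0.79), Cd9 (-0.75), Abcg1 (-0.54), Axl (-0.50) and Csf1 (-0.39). Those with a larger or less negative change in WAT were Ctsd (0.81), Lpl (0.70), Cebpb (0.61), Nr1h3 (0.49) and Ctsl (0.43).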

How the results depend on the processing

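In BAT the count of members called higher ran from 27 to 33 over 20 alternatives, while that of all genes tested ran from 704 to 1823. Of the 32 members, 25 kept their call in all alternatives. The others were Cd163, Clec4n, Fcgr1, Folr2, Itgax, Ms4a6d and Ms4a7. Centring each array changed the split of all called genes in BAT from 1398 higher and 1744 lower to 886 and 2511, with 30 members still called higher. In WAT the 0 members called became 2 with quantile normalization, 1 with the mean of all probe sets, 3 with a filter on low values, 2 with eBayes trend and robust settings, 4 in one fit of all 18 arrays (Stab1, Gpnmb, Trem2 and Lgals3) and 0 to 3 leaving out 1 array. Of all genes tested, those called higher went from 174 to 230, 176, 259, 181, 294 and 23 to 243 in the same order. For the WAT change minus the BAT change, the 11 lower members became 5 with quantile normalization (and 1 higher, Trem2 at 0.26), 7 with centred arrays, 4 without control BAT 2 and 4, 2 without FXR BAT 1, 2 and 4, and 2 to 12 leaving out 1 array. Of all genes, those called lower went from 403 to 344, 254, 240, 498 and 279 to 621 in the same order. With quantile normalization 525 of all genes were called higher. With the replicate number as a block the counts were 32 in BAT, 0 in WAT and 9 lower between tissues. Of all genes, 1141 were called higher in BAT, 135 higher in WAT and 348 lower between tissues with that block. For the difference between tissues the block joined control and FXR arrays of the same number within a tissue. Pairing of BAT with WAT arrays was not modelled, and numbers were not taken as pairs.

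Control BAT against control WAT: the 10 members higher became 0 with quantile normalization, 0 with centred arrays and 6 with the filter, and the 17 lower became 33 with quantile normalization and 34 with centred arrays. Of all 19937 genes, 6863 were called lower with quantile normalization and 8772 with centred arrays. Reversed with quantile normalization were Timd4 (-0.59), Itgax (-0.41), Aif1 (-0.18), Ms4a6d (-0.26), Fcgr1 (-0.41), Fcgr3 (-0.74), C5ar1 (-0.50), Cd14 (-0.67) and Clec4n (-0.20). Trem2 changed sign there too, to -0.06 ± 0.05, but was no longer called (limma adjusted p = 0.325). Reversed with centred arrays were Timd4 (-0.47), Itgax (-0.44), Aif1 (-0.31), Ms4a7 (-0.21), Ms4a6d (-0.20), Fcgr1 (-0.33), Fcgr3 (-0.47), C5ar1 (-0.37), Cd14 (-0.51) and Clec4n (-0.44). The lipid-associated minus resident-type change ran from -0.26 to -0.13 for BAT and from 0.15 to 0.26 for WAT, except 0.42 for WAT when each array's floor was subtracted, a setting chosen after seeing the data. Signal over background limits Ms4a7 and Clec4n in control BAT, and Itgax, Aif1, Ms4a7 and Clec4n in control WAT, which lay within 1.5 times the floor on all arrays.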

Other observations

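Genes for the engulfment of dead cells rose in 6 of 12 cases in FXR BAT and fell in 0, with a median change of 0.24. Besides Gas6, its receptor Axl rose by 0.73 ± 0.10 (limma adjusted p = 7.51e-04) and the sterol exporter Abcg1 by 0.48 ± 0.07 (adjusted p = 0.00123), while Mertk, the related receptor typical of resident macrophages, changed by 0.08 ± 0.08 (adjusted p = 0.593). Without control BAT 2 and 4 the count was 6, and without FXR BAT 1, 2 and 4 it was 5. In WAT 0 of 12 were called.

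Of 9 measured genes of monocytes and their recruitment, 5 rose in BAT and 0 in WAT. Vcan, a proteoglycan also made by fibroblasts, changed by 0.82 ± 0.09 in BAT (limma adjusted p = 1.56e-04) and 0.66 ± 0.15 in WAT (adjusted p = 0.0832). Cx3cr1, the fractalkine receptor, changed by 0.62 ± 0.09 (adjusted p = 8.16e-04) and 0.48 ± 0.11 (adjusted p = 0.0770), and Ccr2, the receptor for Ccl2, by 0.36 ± 0.09 (adjusted p = 0.0176) and 0.03 ± 0.10 (adjusted p = 0.953). The BAT count was 2 without control BAT 2 and 4 and 3 without FXR BAT 1, 2 and 4. The antigen presentation genes Cd74, H2-Aa and H2-Ab1 changed by -0.12 ± 0.15, -0.20 ± 0.17 and -0.33 ± 0.18 in BAT, with adjusted p of 0.675, 0.525 and 0.269.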
